A study of Mus musculus with 7 samples.

Results

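The mitochondrial genome of the mouse was followed through 7 RNA libraries of C57BL/6 liver. Its genes were taken as the rows of the deposited gene tables whose locus lies on the mitochondrial chromosome, which gave 37 of 37468 rows: 13 mRNAs, 2 rRNAs and 22 tRNAs. The choice used no measured value. All 37 carried the status OK in all 7 libraries, and all 37 passed the filter on low values.

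The libraries fell into 4 groups by their labels. Myod1_active was 1 library of SunTag-dCas9 mice in which Myod1, a muscle transcription factor, had been activated. Myod1_control was 2 control libraries of that experiment, also from SunTag-dCas9 mice. SunTag was 2 libraries of SunTag-dCas9 mice set against wild type, and WT was 2 libraries of wild-type mice. SunTag-dCas9 is a knocked-in form of Cas9 that binds DNA without cutting it and carries a peptide array to which effector proteins attach. The sources used here do not give the means of activation, the treatment of the controls, the promoter of the knock-in, or the sex and age of the animals. The labels number the libraries of a group as replicates without tying them to separate animals, so the spread behind each p-value may be technical.

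Mitochondrial DNA codes for a small, essential part of the respiratory chain, for the rRNAs of the mitochondrial ribosome and for the tRNAs that read its code. Both strands are transcribed as long precursors in which tRNAs lie between the mRNAs and rRNAs, and cutting at the ends of the tRNAs frees the mature RNAs. Liver, a tissue rich in mitochondria, carries many copies of this genome per cell.

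As a check of the labels, Myod1 was at 3.52 FPKM in the Myod1_active library and was listed at 0 in the other 6. The deposited unit was FPKM, a fragment number scaled by transcript length and by library depth, with a lower and an upper bound per value. Read counts were not used here. Where each bound is taken as 2 SD of a counting error, the width of the bounds implies a number of fragments behind each value, and these implied fragments summed to between 1.56e+07 and 1.93e+07 per library. They are estimates, and for overlapping genes the bounds can also hold the uncertainty of assigning reads. All 8 hepatocyte markers were above 0 in every library, with a sum, mostly Alb, of 44351 to 50327 FPKM in the 3 Myod1 experiment libraries and 66732 to 79640 FPKM in the SunTag and WT groups. Cps1 ran the other way, at 933 to 1071 FPKM in the Myod1 experiment and 633 to 716 FPKM in SunTag and WT. The ranges of Apoa1, Cyp2e1, Hnf4a and Serpina1a overlapped. Only Alb, Ttr and Tat were lower in every Myod1 experiment library than in every SunTag and WT library.

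The tRNAs on which the results turn are printed 5′ to 3′ as RNA-sense DNA letters from the GENCODE M21 transcripts (GRCm38), whose positions on the mitochondrial chromosome were the same as those in the mm9 tables for all 37 genes. The first 4 are the last genes of runs of overlapping genes, and capitals mark the bases that a tRNA shares with its neighbour.
mt-Ts1: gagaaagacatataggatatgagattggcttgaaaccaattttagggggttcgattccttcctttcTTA
mt-Tq: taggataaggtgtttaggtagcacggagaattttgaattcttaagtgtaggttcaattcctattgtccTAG
mt-Tw: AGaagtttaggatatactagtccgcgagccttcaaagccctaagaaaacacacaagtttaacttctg
mt-Tl2: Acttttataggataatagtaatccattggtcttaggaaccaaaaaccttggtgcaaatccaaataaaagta
mt-Te: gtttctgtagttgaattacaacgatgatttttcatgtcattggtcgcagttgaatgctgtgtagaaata
mt-Tl1: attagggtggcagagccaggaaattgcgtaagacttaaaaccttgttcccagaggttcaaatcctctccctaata

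mt-Ts1, a serine tRNA, lies at chrM:6870-6938 on the minus strand and shares its last 3 bases with the end of mt-Co1 on the plus strand. mt-Te, the glutamate tRNA at chrM:14071-14139 on the minus strand, and mt-Tl1, a leucine tRNA at chrM:2676-2750 on the plus strand between mt-Rnr2 and mt-Nd1, share no base with a neighbour. mt-Tq (chrM:3772-3842, minus strand) shares 3 bases with mt-Ti, mt-Tw (chrM:4950-5016, plus strand) 2 bases with mt-Nd2, and mt-Tl2 (chrM:11671-11741, plus strand) 1 base with mt-Ts2.

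Taken as a share of the summed FPKM of a library, the 37 genes held 27.1% in the Myod1_active library, 26.6% and 38.4% in the Myod1_control libraries, 48.6% and 43.4% in the SunTag libraries, and 45.6% and 42.04% in the WT libraries. All 4 libraries of the SunTag and WT groups lay above the 3 of the Myod1 experiment. That difference in level sat in 1 gene of 69 bases, mt-Ts1, and the other 36 genes together ran the other way. Of the same sum, those 36 genes held 20.5% in Myod1_active and a mean of 25.3% in Myod1_control. Their mean was 15.5% in SunTag and 13.8% in WT. mt-Ts1 alone held 6.70% in Myod1_active, 5.85% and 8.41% in Myod1_control, 34.1% and 26.9% in SunTag, and 31.5% and 28.6% in WT. The 13 mRNAs ran the other way, at 8.24% in Myod1_active, 7.64% and 11.2% in Myod1_control, 4.44% and 4.10% in SunTag, and 3.78% and 3.85% in WT. Their mean was 9.41% ± 2.49 in Myod1_control and 4.27% ± 0.238 in SunTag (SD, n = 2 each).

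With mt-Ts1 left out of both the genes and the sum, the other 36 genes held 21.92% in Myod1_active, 22.01% and 32.7% in Myod1_control, 21.997% and 22.6% in SunTag, and 20.6% and 18.9% in WT. The ranges of Myod1_control and SunTag then overlapped, and Myod1_control replicate 2 stood above the other 6 libraries. As a share of implied fragments, the 37 genes held 8.83% in Myod1_active, 8.76% and 12.3% in Myod1_control, 6.33% and 5.30% in SunTag, and 4.83% and 4.73% in WT. The order of Myod1_control and SunTag was thus opposite on the 2 scales. On implied fragments the mRNAs made up nearly all of the sum, and mt-Ts1 held 0.011% in Myod1_active, 0.010% and 0.015% in Myod1_control, 0.068% and 0.041% in SunTag, and 0.050% and 0.042% in WT. An exact two-sided permutation test over libraries cannot go below p = 0.333 with 2 against 2 or 1 against 2, so no share could pass a threshold of 0.05.

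**Figure D1:**
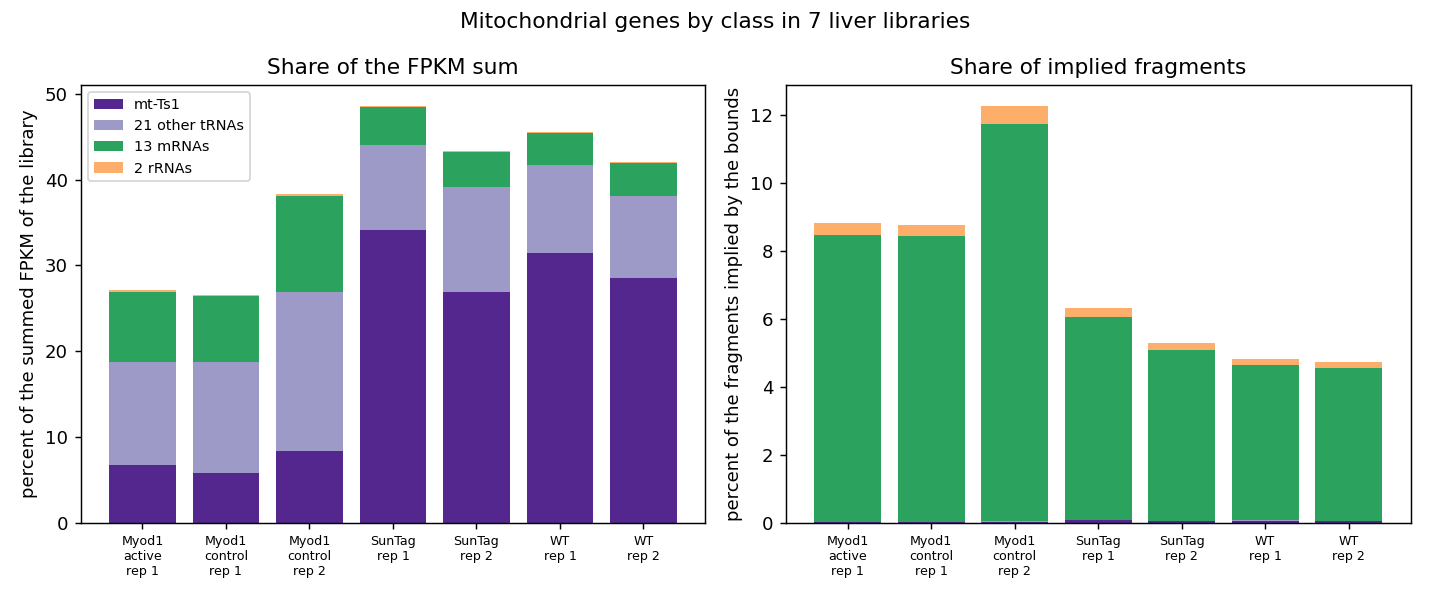
Stacked bars give, for each of the 7 libraries, the percent of the summed FPKM (left) and of the fragments implied by the bounds (right) held by mt-Ts1, the 21 other tRNAs, the 13 mRNAs and the 2 rRNAs. mt-Ts1 fills 26.9% to 34.1% of the FPKM sum in the SunTag and WT libraries and at most 8.41% in the Myod1 experiment, while on the right the mRNAs fill nearly all of each bar.

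How far the FPKM of a mitochondrial gene lay from the middle of its own bounds depended on its length and place. For 18 tRNAs the FPKM was 38.9 to 102 times the midpoint of the bounds (median over libraries), and for mt-Atp8, an mRNA of 204 bases, it was 6.12 times. The 7 genes that come last in a run of overlapping genes, mt-Tq, mt-Tw, mt-Ts1, mt-Co3, mt-Nd4, mt-Tl2 and mt-Nd6, had ratios of 0.982 to 1. A ratio within 0.05 of 1 was found in 7 of these 7 genes and in 0 of the other 30. In the rows off the mitochondrial chromosome the median ratio was 18.5 for genes under 100 bp, 5.36 from 100 bp up to 300 bp and 0.9999 for 300 bp and over. Since the ratio differs so much between short genes, an order of genes by FPKM need not hold in implied fragments per kilobase. Below, the order is given by FPKM, with the other scale beside it for some genes only.

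**Figure D2:**
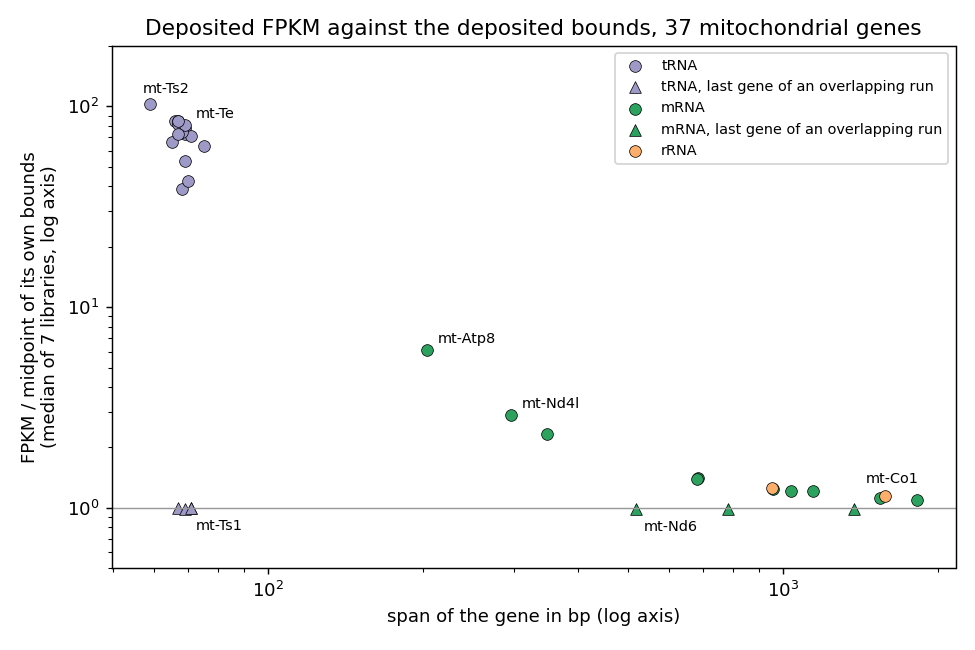
Each point is 1 mitochondrial gene, with its span in bp on the x axis and the ratio of its FPKM to the midpoint of its own bounds (median of 7 libraries) on the y axis, both log axes. The 7 triangles, the last genes of overlapping runs, lie at 0.982 to 1 whatever their span, while the other tRNAs lie at 38.9 to 102.

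The 2 rRNAs, the RNA cores of the small and the large subunit of the mitochondrial ribosome, lay at the low end of the mRNAs by FPKM. mt-Rnr2 was below all 13 mRNAs in every library, and mt-Rnr1 was below all 13 in the Myod1 experiment and above 1 mRNA, mt-Nd5, in each SunTag and WT library. mt-Rnr1 was at 1703 FPKM in Myod1_active, 1394 and 2003 FPKM in Myod1_control, 1290 and 1170 FPKM in SunTag, and 993 and 1174 FPKM in WT. mt-Rnr2 was at 847 FPKM in Myod1_active, 920 and 1363 FPKM in Myod1_control, 848 and 681 FPKM in SunTag, and 592 and 566 FPKM in WT. For both, the Myod1_control libraries lay above the SunTag libraries, and only for mt-Rnr2 did SunTag lie above WT. Neither rRNA passed the test in any comparison (limma on log2(FPKM + 1), Benjamini-Hochberg adjusted p of 0.15 or more). No label says whether rRNA was depleted or polyadenylated RNA selected.

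Among the mRNAs, mt-Atp8 had the highest FPKM in each of the 7 libraries, with a mean of 19380, but stood only 7th to 10th of 13 in implied fragments per kilobase. mt-Co1, the catalytic subunit of cytochrome oxidase, was 2nd by FPKM in the 3 Myod1 experiment libraries and 3rd or 4th in the SunTag and WT libraries. mt-Co2, the subunit of that complex that takes up electrons from cytochrome c, was 3rd or 4th by FPKM in the Myod1 experiment and 2nd or 3rd in SunTag and WT, above mt-Co1 in all 4 of those libraries. mt-Nd5 had the lowest FPKM in each of the 7 libraries. In implied fragments per kilobase the lowest mRNA was mt-Nd3 in the 3 Myod1 experiment libraries, mt-Nd5 in SunTag replicate 1, and mt-Nd4l in SunTag replicate 2 and both WT libraries. Of the fragments implied for the 13 mRNAs, the 7 complex I subunits held 33.3% in Myod1_active, 35.3% and 35.9% in Myod1_control, 30.4% and 30.7% in SunTag, and 29.0% and 27.9% in WT. The 3 complex IV subunits held 46.6% in Myod1_active, 45.3% and 44.5% in Myod1_control, 48.3% and 48.3% in SunTag, and 50.5% and 51.1% in WT. Complex I was thus the larger part, and complex IV the smaller part, in each Myod1 experiment library than in each SunTag or WT library.

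**Figure D3:**
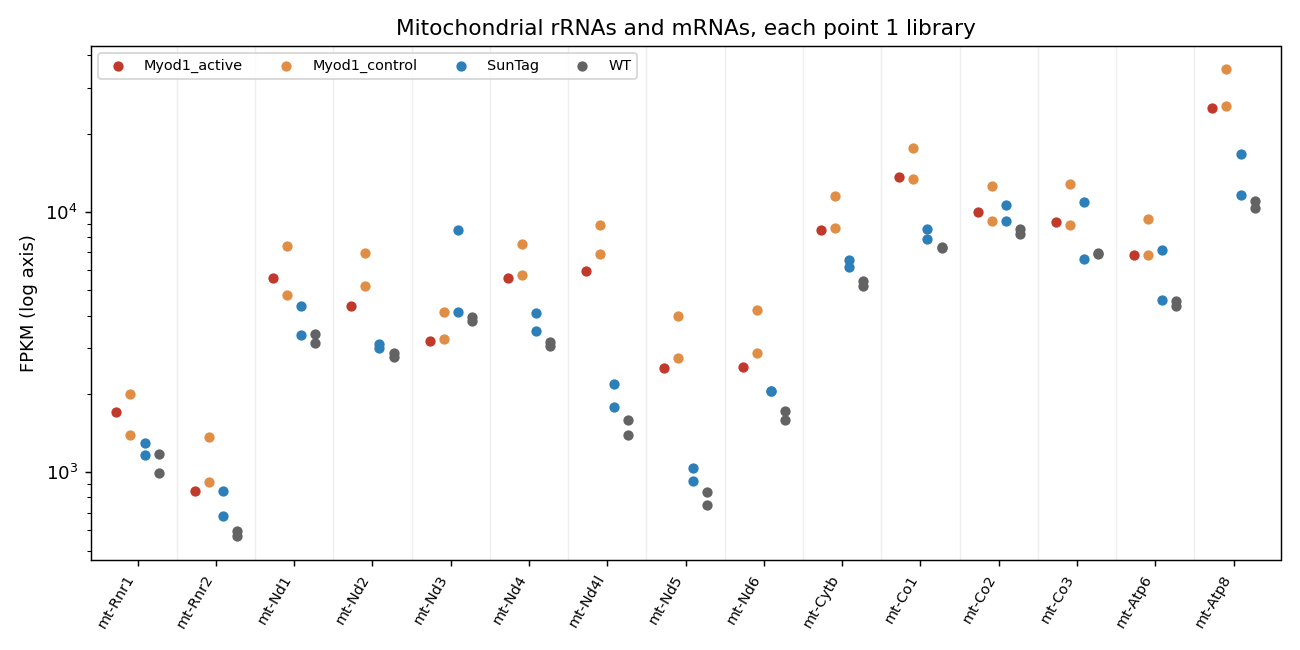
FPKM (log axis) of the 2 rRNAs and 13 mRNAs, ordered by complex, with each point 1 library and the 4 groups in colour. The Myod1_control libraries lie above the SunTag libraries for mt-Nd4l, mt-Nd5 and mt-Co1 but not for mt-Nd3.

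The first question of the design was whether the SunTag-dCas9 knock-in itself altered liver RNA. Of the 37 mitochondrial genes, 0 passed the test between SunTag and WT (limma, adjusted p of 1 for each), and 1 had an unadjusted p under 0.05. The share called among the 15744 genes tested was 0.127%, and 1.95% had an unadjusted p under 0.05. All 13 mRNAs had a positive log2 difference, 0.11 to 0.60 with a median of 0.29, against a median of 0.01 over all genes tested. Both SunTag libraries lay above both WT libraries for 11 of the 13 mRNAs, against 13% of all genes tested. Without SunTag replicate 1, 12 of the 13 differences were positive and the median was 0.12. The mitochondrial genes share libraries and precursor transcripts, so these counts are not independent.

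mt-Co1 was at 8613 and 7875 FPKM in SunTag, against 7341 and 7283 FPKM in WT, a log2 difference of 0.17 ± 0.21 (SE). mt-Cytb was at 6516 and 6166 FPKM in SunTag, against 5208 and 5428 FPKM in WT, a log2 difference of 0.25 ± 0.20 (SE). For both genes the groups did not overlap. mt-Nd3, a small complex I subunit, was at 8506 and 4115 FPKM in SunTag, against 3965 and 3821 FPKM in WT. Its log2 difference of 0.60 ± 0.38 (SE) was the highest among the mRNAs, and SunTag replicate 1 was far above the other 3 libraries.

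The tRNAs were more scattered between SunTag and WT, with 17 of 22 differences positive and a range of -0.89 to 2.65. mt-Ts1 was at 659980 and 424411 FPKM in SunTag, against 503798 and 443643 FPKM in WT. The WT libraries lay between the SunTag libraries. The log2 difference of mt-Ts1 was 0.16 ± 0.33 (SE), and it turned to -0.16 without SunTag replicate 1. mt-Tw, the tryptophan tRNA, was at 354 and 542 FPKM in SunTag, against 105 and 250 FPKM in WT, and had the only unadjusted p under 0.05 (0.0284, limma; log2 difference 1.43 ± 0.47 SE; adjusted p of 1). The mt-Tw values rest on few fragments, 12.5 and 14.1 implied in SunTag and 7.44 in WT replicate 2. WT replicate 1 had a lower bound of 0 and so no implied number. mt-Td, the aspartate tRNA, had the highest difference, 2.65 ± 2.19 (SE). It was listed at 0 in WT replicate 2, at 90.7 FPKM in WT replicate 1 and at 111 and 31.2 FPKM in SunTag. At most 5.59 fragments were implied for any of these mt-Td values.

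The second question was what activation of Myod1 changed in liver, with 1 library against 2. None of the 37 genes passed the test (0 called, lowest adjusted p 0.219, limma), and 1 had an unadjusted p under 0.05. Among all genes tested, 0.254% were called and 19.5% had an unadjusted p under 0.05. The median of all genes lay at 0.25 on the log2 scale in this comparison. All 13 mRNAs had negative differences, -0.46 to -0.10 with a median of -0.23, which is -0.48 relative to the median gene. The Myod1_active library lay below both controls for 8 of the 13 mRNAs, against 16.6% of all genes tested. Of the 22 tRNAs, 18 had negative differences, and their median was -0.44, which is -0.69 relative to the median gene. Myod1_active lay below both controls for 16 tRNAs and above both for 2, against 16.6% and 61.4% of all genes tested. The median of the mRNAs was -0.45 without Myod1_control replicate 1 and -0.025 without Myod1_control replicate 2. Without Myod1_control replicate 2, the differences of 5 of the 13 mRNAs were positive, and mt-Tf passed the test, then set against a control listed at 0.

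mt-Co1 was at 13632 FPKM in Myod1_active, against 13353 and 17685 FPKM in Myod1_control. mt-Nd2 was at 4347 FPKM in Myod1_active, against 5189 and 6929 FPKM in Myod1_control, and its log2 difference of -0.46 ± 0.24 (SE) was the lowest among the mRNAs. mt-Ts1 was at 83598 FPKM in Myod1_active, against 79697 and 107068 FPKM in Myod1_control, a log2 difference of -0.14 ± 0.41 (SE). For mt-Co1 and mt-Ts1 the activated library lay between its controls. mt-Ti, the isoleucine tRNA, was at 2577 FPKM in Myod1_active, against 5511 and 6056 FPKM in Myod1_control. Its log2 difference was -1.16 ± 0.38 (SE), with an adjusted p of 0.219 (limma) and the only unadjusted p under 0.05, 0.0272. mt-Tf, the phenylalanine tRNA, was at 90.3 FPKM in Myod1_active and at 34.6 FPKM in Myod1_control replicate 2. It was listed at 0 in Myod1_control replicate 1. The Myod1_active value of mt-Tf rests on 5.59 implied fragments, and both control values had a lower bound of 0 and so no implied number.

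The comparison with mitochondrial genes past the threshold was that of the controls of the Myod1 experiment with the SunTag libraries, which differ by no treatment the labels name other than what the controls received. Here experiment and group cannot be told apart. Of the 37 genes, 9 were higher in Myod1_control (mt-Tl1, mt-Tm, mt-Nd2, mt-Tw, mt-Tc, mt-Co1, mt-Atp8, mt-Nd4l and mt-Nd5) and 3 were lower (mt-Ts1, mt-Ts2 and mt-Te). Among all genes tested, 7.3% were called higher and 17% lower. These calls depended on single libraries: 0 members passed without WT replicate 1, without WT replicate 2 or without Myod1_control replicate 1, 2 passed without Myod1_control replicate 2, of which 0 were among the 12, 2 passed without SunTag replicate 1, both among the 12, and 8 passed without SunTag replicate 2, of which 5 were among the 12. WT is not part of this comparison, so leaving out a WT library left each log2 difference as it was. It altered the shared spread, its degrees of freedom and the set of genes tested. With only the 2 groups in the fit 1 member passed, and with no filter on low values 3 did. The test of all genes moved with it: without WT replicate 1, for example, 24 genes were called higher and 35 lower in place of 1149 and 2683. Dividing by median-ratio size factors moved the split of calls to 1820 higher and 1750 lower over all genes and to 12 higher and 1 lower among the members.

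Of the 13 mRNAs, 5 were called higher in Myod1_control and 0 lower, against 7.3% and 17% of all genes tested. A positive difference was seen in 12, and 9 lay above SunTag without overlap (against 24.9% of all genes tested). The median was 0.75 against -0.14 over all genes tested. mt-Nd4l, a small complex I subunit, was at 6900 and 8934 FPKM in Myod1_control, against 2176 and 1779 FPKM in SunTag. mt-Nd5, a large complex I subunit of the proton pump, was at 2755 and 3977 FPKM in Myod1_control, against 923 and 1042 FPKM in SunTag. In both genes every Myod1 experiment library lay above every SunTag and WT library. The log2 difference was 1.996 ± 0.21 (SE, adjusted p 0.0162) for mt-Nd4l and 1.75 ± 0.23 (SE, adjusted p 0.0184) for mt-Nd5, by limma.

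The other mRNAs called differed less. mt-Co1 was at 13353 and 17685 FPKM in Myod1_control, against 8613 and 7875 FPKM in SunTag, a log2 difference of 0.90 ± 0.21 (SE, adjusted p 0.0404, limma). mt-Nd2 was at 5189 and 6929 FPKM in Myod1_control, against 3110 and 3009 FPKM in SunTag, a log2 difference of 0.97 ± 0.20 (SE, adjusted p 0.0314, limma). The groups did not overlap for either gene. mt-Atp8, a subunit of the membrane part of ATP synthase, was at 25552 and 35343 FPKM in Myod1_control, against 16722 and 11577 FPKM in SunTag, a log2 difference of 1.111 ± 0.28 (SE, adjusted p 0.0479, limma). mt-Atp8 shares 43 bases with mt-Atp6, whose log2 difference was 0.48 ± 0.29 (SE, adjusted p 0.273, limma), so reads could be split between them. mt-Nd4 missed the threshold at an adjusted p of 0.0505 (limma), with 5721 and 7528 FPKM in Myod1_control, against 4097 and 3481 FPKM in SunTag. mt-Nd3 was the mRNA with a negative difference, -0.69 ± 0.38 (SE), at 3255 and 4119 FPKM in Myod1_control, against 8506 and 4115 FPKM in SunTag.

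The remaining mRNAs did not pass the test between Myod1_control and SunTag. mt-Nd1 and mt-Nd6 of complex I had log2 differences of 0.63 ± 0.28 and 0.75 ± 0.23 (SE), and mt-Cytb of complex III one of 0.65 ± 0.20 (SE). mt-Co2 was at 9269 and 12577 FPKM in Myod1_control, against 10674 and 9205 FPKM in SunTag. mt-Co3 was at 8873 and 12754 FPKM in Myod1_control, against 10955 and 6579 FPKM in SunTag. Both genes overlapped between the groups, unlike mt-Co1 of the same complex. The ratio of mt-Co1 to mt-Co2 FPKM within a library, which no scaling of the library alters, was 1.37 in Myod1_active, 1.44 and 1.41 in Myod1_control, 0.807 and 0.856 in SunTag, and 0.894 and 0.850 in WT.

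Some mitochondrial genes resemble nuclear rows, so that reads could be split between them. In the GENCODE M21 transcripts, 8 nuclear rows matched a mitochondrial gene at 90% identity or more over at least 100 bp. The tRNAs, of 59 to 75 bases, are shorter than that and could not match. Whether they have nuclear copies was therefore not tested, and sequence outside the transcripts was not searched. Gm10222 on chromosome 1 was identical to mt-Nd4l over 294 bp, and the ratio of mt-Nd4l to Gm10222 FPKM was 0.983 to 1.02 in the 7 libraries. Gm13340 on chromosome 2 matched mt-Co1 at 97.6% over 1545 bp, with 2322 FPKM in Myod1_active, 2253 and 3006 FPKM in Myod1_control, 1288 and 1174 FPKM in SunTag, and 1111 and 997 FPKM in WT. Its libraries fell in the same order of groups as those of mt-Co1. Gm13341 matched mt-Co2 at 95.9%, Gm13339 matched mt-Nd2 at 96.7% and Gm11407 matched mt-Nd5 at 92.3%. Gm10925 on chromosome 1 had no GENCODE M21 transcript to compare and was at 5253 FPKM in Myod1_active, 5237 and 7100 FPKM in Myod1_control, 5764 and 3645 FPKM in SunTag, and 3619 and 3482 FPKM in WT. The levels of mt-Nd4l, mt-Co1, mt-Co2, mt-Nd2 and mt-Nd5 are uncertain to that extent. Gm10925 and mt-Atp6 ranked the 7 libraries in the same order by FPKM, and whether they share reads was not tested.

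The 22 tRNAs spanned 59 to 75 bases and covered the widest range of levels. Of the 8 tRNAs of the minus strand, 7 or 8 were among the 9 highest of the 22 by FPKM in each library. In implied fragments per kilobase, mt-Tc, mt-Tn and mt-Ta stood 12th, 13th and 14th in WT replicate 1. On that scale mt-Tn was 12th in SunTag replicate 1 and mt-Tc 10th in WT replicate 2. In the remaining libraries all 8 were among the 9 highest. mt-Tl1 of the plus strand was 3rd by FPKM in each Myod1 experiment library and 7th to 10th in the SunTag and WT libraries. The minus-strand tRNAs lie opposite the long plus-strand precursor, and whether strand was used in counting was not given, so their reads and those of antisense RNA cannot be told apart. The same limit holds for mt-Nd6, the only mRNA of the minus strand. mt-Ts1 took 35.8% of the summed tRNA FPKM in Myod1_active, 31.2% and 31.2% in Myod1_control, 77.4% and 68.6% in SunTag, and 75.5% and 74.98% in WT. mt-Te kept a narrow share of 13.2% to 17.0% in all 7 libraries.

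**Figure D4:**
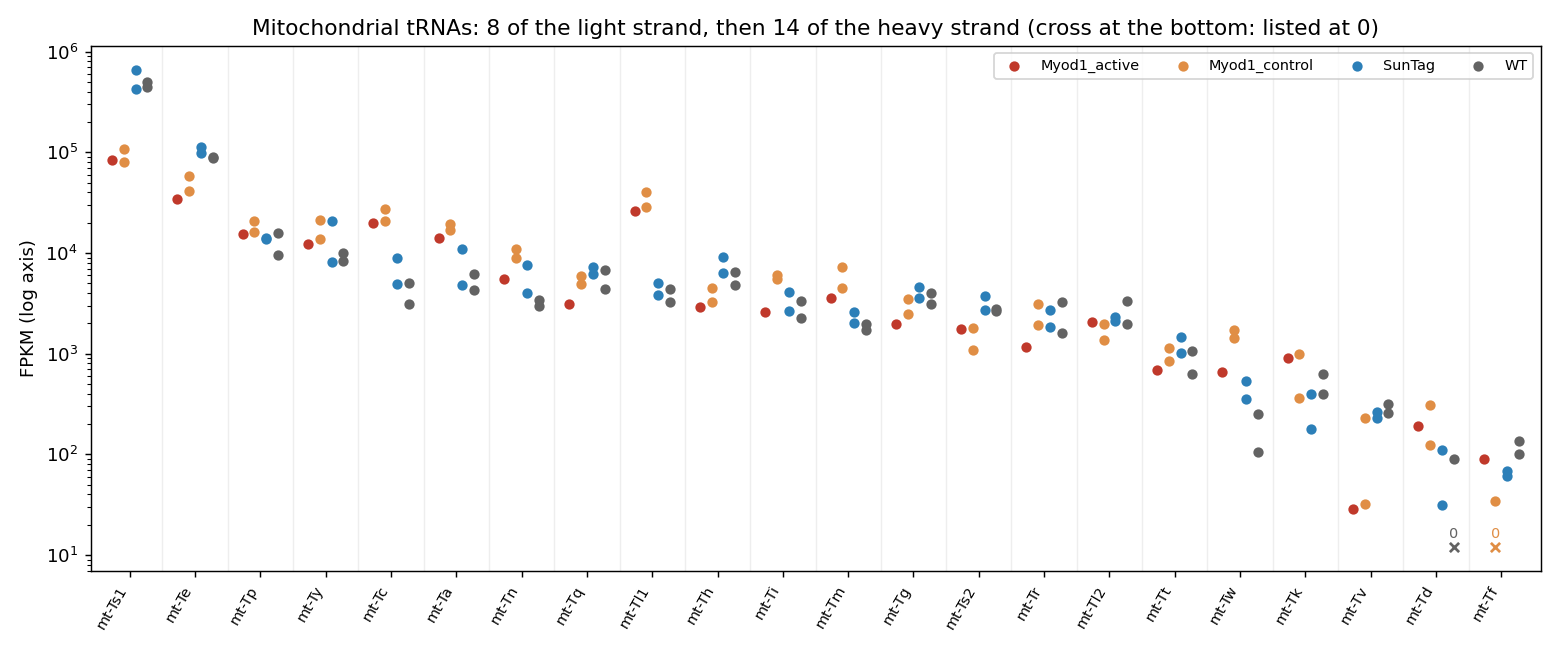
FPKM (log axis) of the 22 tRNAs, first the 8 of the minus (light) strand and then the 14 of the plus (heavy) strand, each point 1 library and the 4 groups in colour; crosses at the bottom mark values listed at 0. mt-Ts1 and mt-Te are lower and mt-Tl1 is higher in the 3 Myod1 experiment libraries than in the SunTag and WT libraries.

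Of the 22 tRNAs, 4 were called higher in Myod1_control than in SunTag and 3 lower, against 7.3% and 17% of all genes tested. mt-Ts1 was at 79697 and 107068 FPKM in Myod1_control, against 659980 and 424411 FPKM in SunTag. mt-Tl1 was at 28749 and 40492 FPKM in Myod1_control, against 5055 and 3861 FPKM in SunTag. These sequences, printed above, moved in opposite directions without any overlap between the experiments. The log2 difference was -2.52 ± 0.33 (SE, adjusted p 0.0189, limma) for mt-Ts1 and 2.95 ± 0.29 (SE, adjusted p 0.0151, limma) for mt-Tl1. The ratio of mt-Ts1 to mt-Tl1 FPKM within a library was 3.20 in Myod1_active, 2.77 and 2.64 in Myod1_control, 131 and 110 in SunTag, and 116 and 137 in WT. Implied fragments showed the same order of groups, with 1548 and 2306 for mt-Ts1 in Myod1_control, against 13055 and 6910 in SunTag, and 628 and 1031 for mt-Tl1 in Myod1_control, against 127 and 122 in SunTag.

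mt-Te fell with mt-Ts1, at 40864 and 58389 FPKM in Myod1_control, against 112807 and 98261 FPKM in SunTag, a log2 difference of -1.11 ± 0.26 (SE, adjusted p 0.0416, limma). mt-Ts2, the other serine tRNA, was at 1095 and 1805 FPKM in Myod1_control, against 3716 and 2722 FPKM in SunTag, with a log2 difference of -1.18 ± 0.30 (SE, adjusted p 0.0496, limma). mt-Tc, the cysteine tRNA, was at 20992 and 27233 FPKM in Myod1_control, against 4945 and 8887 FPKM in SunTag. mt-Tm, the methionine tRNA that also starts mitochondrial translation, was at 4544 and 7274 FPKM in Myod1_control, against 2567 and 2028 FPKM in SunTag. Neither gene overlapped between the groups. Their log2 differences were 1.85 ± 0.40 and 1.33 ± 0.29 (SE, adjusted p 0.0349 for each, limma). mt-Tw was at 1423 and 1710 FPKM in Myod1_control, against 354 and 542 FPKM in SunTag, with a log2 difference of 1.83 ± 0.47 (SE, adjusted p 0.0481, limma). Its implied fragments were few, 44.4 and 52.3 in Myod1_control, against 12.5 and 14.1 in SunTag.

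The other abundant tRNAs did not pass. mt-Tp, the proline tRNA, was at 16185 and 20666 FPKM in Myod1_control, against 13685 and 14190 FPKM in SunTag. mt-Ty, the tyrosine tRNA, was at 13873 and 21248 FPKM in Myod1_control, against 8114 and 20580 FPKM in SunTag. The mt-Ty ranges overlapped and those of mt-Tp did not, and the adjusted p was 0.57 for mt-Ty and 0.375 for mt-Tp (limma). Direction did not follow the strand: of the minus-strand tRNAs, mt-Tc was called higher while mt-Ts1 and mt-Te were called lower, and of the plus-strand tRNAs, mt-Tl1, mt-Tm and mt-Tw were called higher while mt-Ts2 was called lower.

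**Figure D5:**
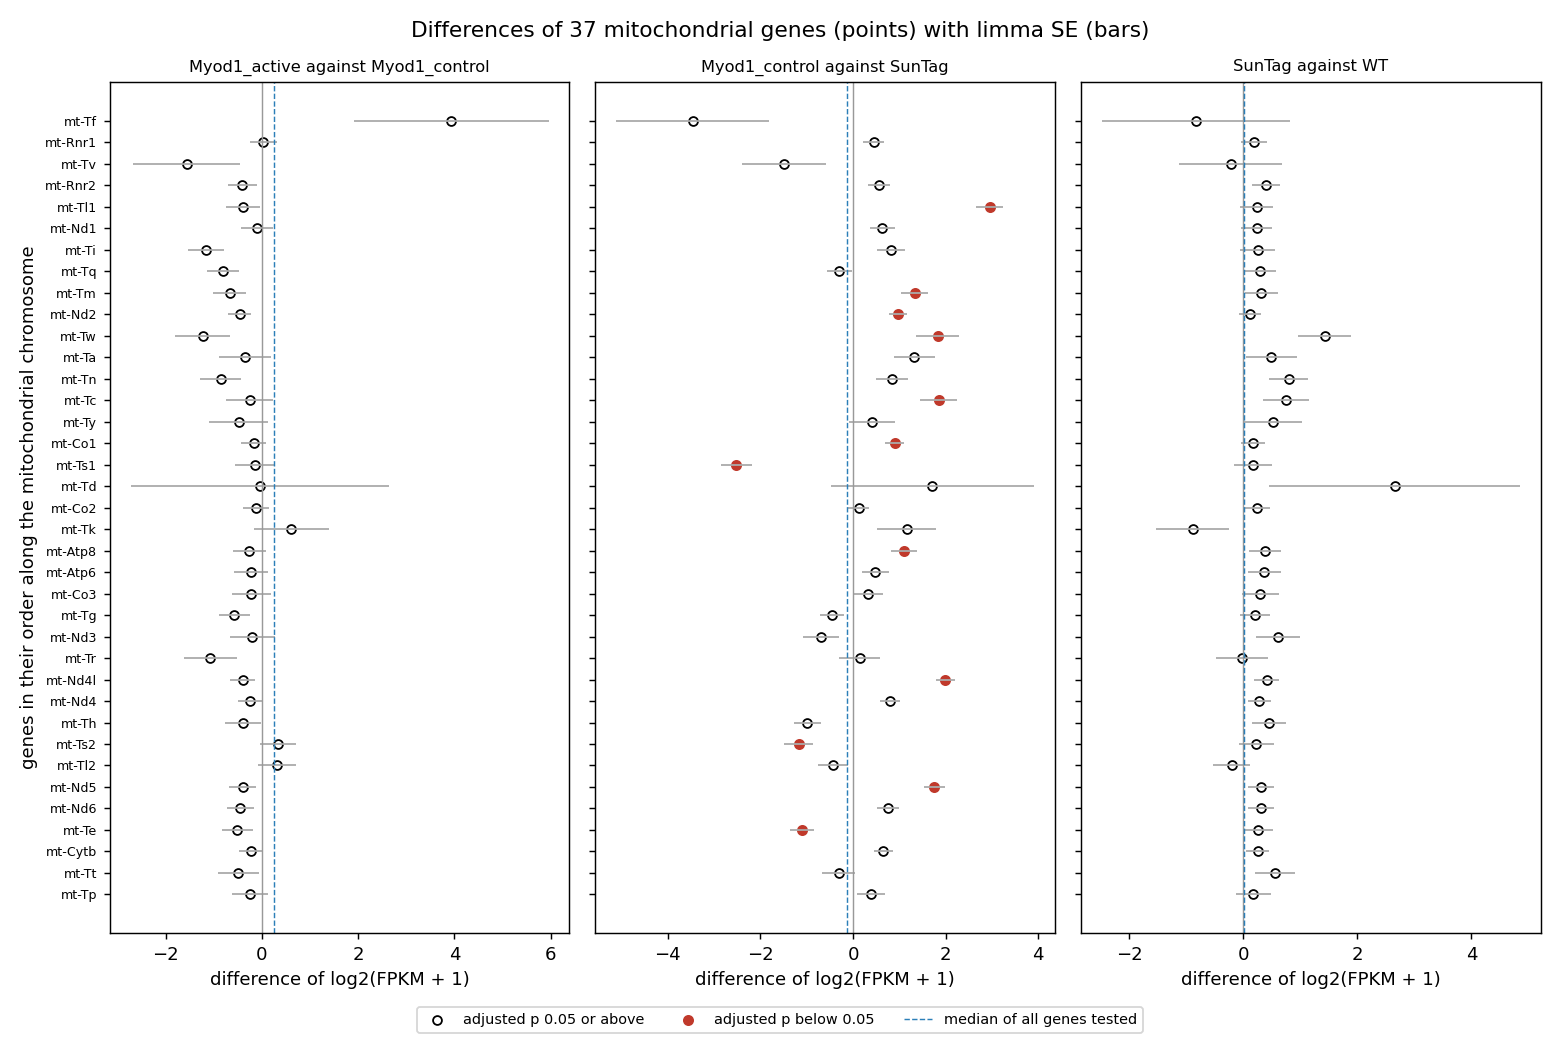
Difference of log2(FPKM + 1) of each of the 37 genes, in their order along the chromosome, with bars of 1 limma SE, for Myod1_active against Myod1_control, Myod1_control against SunTag, and SunTag against WT. Red points passed the test and the dashed line is the median of all genes tested; 12 points in the middle panel are red and 0 in the outer panels.

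Nuclear genes that make, use or join these RNAs were counted by hand-written lists. The complex I list holds Ndufa4, whose place in that complex was not checked. The counts by complex, here and below, are those of the lists as written. Between Myod1_control and SunTag, 30 of 36 nuclear complex I subunits, 7 of 9 of complex III, 8 of 14 tested of complex IV and 13 of 17 of complex V were called lower, and 0 were called higher, beside the 17% called lower among all genes tested. The median log2 difference relative to the median gene was -0.85 for complex I, -1.21 for complex III, -0.87 for complex IV and -1.11 for complex V. Ndufa3 of complex I was at 182 and 173 FPKM in Myod1_control, against 710 and 540 FPKM in SunTag, and Cox6b1 of complex IV was at 207 and 180 FPKM in Myod1_control, against 651 and 470 FPKM in SunTag. None of the 13 mitochondrial mRNAs, which code for subunits of the same complexes, was called lower. Of the 75 mitochondrial ribosomal protein genes, 36 were called lower and 0 higher. The calls in these lists, here and below, were counted in the main fit only. With only the 2 groups in the fit, 153 of all genes tested were called lower in place of 2683. How many of the list calls hold there, or with a library left out, was not tested.

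The genes that copy and process mitochondrial RNA showed no such common direction. Their counts stand beside 7.3% called higher and 17% called lower among all genes tested. In the list for transcription, 1 of 8 was called higher and 1 lower: Polrmt, the mitochondrial RNA polymerase, was at 18.4 and 17.4 FPKM in Myod1_control, against 11.2 and 11.3 FPKM in SunTag, and Tfb1m, which methylates the small rRNA, was at 2.85 and 3.20 FPKM in Myod1_control, against 4.74 and 4.80 FPKM in SunTag. Tfam, which packs mitochondrial DNA and starts its transcription, was at 20.3 and 19.9 FPKM in Myod1_control, against 35.2 and 25.1 FPKM in SunTag, with an adjusted p of 0.0961 (limma). In the list for RNA processing and decay, 2 of 20 were called higher and 2 lower. Elac2, which cuts the 3′ ends of tRNAs, was at 18.5 and 18.8 FPKM in Myod1_control, against 7.28 and 10.8 FPKM in SunTag. Lrpprc, which stabilises mitochondrial mRNAs, was at 30.4 and 36.1 FPKM in Myod1_control, against 18.1 and 20.1 FPKM in SunTag. Fastkd2 and Ptcd2 were the members called lower. Pnpt1, a mitochondrial exoribonuclease, had a log2 difference of 0.52 ± 0.21 (SE, adjusted p 0.127, limma).

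Among 22 mitochondrial aminoacyl-tRNA synthetases, 3 were called higher and 1 lower. The same 7.3% and 17% of all genes tested stand beside the counts of this and the next lists. Ears2, which charges mt-Te, was at 8.33 and 9.88 FPKM in Myod1_control, against 4.36 and 4.31 FPKM in SunTag, and was called higher (log2 difference 0.92 ± 0.13 SE, adjusted p 0.0202, limma). Sars2, which charges both serine tRNAs, was at 6.57 and 6.70 FPKM in Myod1_control, against 5.37 and 7.96 FPKM in SunTag, and its groups overlapped. In maintenance of mitochondrial DNA, 1 of 12 was called higher (Lig3), and Polg, the replicating polymerase, had a log2 difference of 0.34 ± 0.21 (SE). In tRNA modification 1 of 11 was called higher (Trit1). In the other comparisons, where 0.127% (SunTag against WT) and 0.254% (Myod1_active against Myod1_control) of all genes were called, 0 genes of any of these lists were called. The Myod1_active library lay above both controls for 73 of 75 mitochondrial ribosomal protein genes, 35 of 36 nuclear complex I subunits and 17 of 17 of complex V, against 61.4% of all genes tested.

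Other differences moved with the experiments. The 3 red cell markers summed to 37.9 to 45.5 FPKM in the Myod1 experiment libraries and 1375 to 3800 FPKM in the SunTag and WT groups. Of these, the globin genes Hba-a1 and Hbb-b1 were at most 3.18 FPKM in the Myod1 experiment and at least 596 FPKM in SunTag and WT, while Alas2, of heme synthesis, was at 34.0 to 44.1 FPKM in the Myod1 experiment and 7.42 to 21.7 FPKM in SunTag and WT. The macrophage markers summed to 22.6 to 32.8 FPKM in the Myod1 experiment libraries and 124 to 206 FPKM in the SunTag and WT groups. In SunTag and WT that sum was mostly Clec4f. The endothelial markers summed to 19.9 to 31.2 FPKM and 84.0 to 96.7 FPKM in the same libraries. The macrophage marker Cd68 overlapped: it was highest in Myod1_active, at 14.04 FPKM, and at 9.09 FPKM in Myod1_control replicate 2, against 8.69 FPKM in SunTag replicate 2. The endothelial marker Stab2 overlapped too, at 8.695 FPKM in Myod1_control replicate 2 and 7.469 FPKM in SunTag replicate 1. Xist was at 0.0042 to 0.324 FPKM in the Myod1 experiment libraries and 56.9 to 82.2 FPKM in the SunTag and WT groups, and the Y-linked Ddx3y was at 6.97 to 9.23 FPKM in the Myod1 experiment libraries and at most 0.0765 FPKM in the others. The labels give no sex, and a difference between male and female livers cannot be told apart from the difference between Myod1_control and SunTag. The 10 heart muscle markers summed to at most 0.885 FPKM in the Myod1 experiment libraries, to 7.28 and 2.37 FPKM in SunTag, and to 45.0 and 47.1 FPKM in WT. This sum thus also differed between SunTag and WT. Myl4 ran the other way between those groups, at 1.127 and 0.729 FPKM in SunTag, against 0.688 and 0.623 FPKM in WT. Myl7 overlapped, at 4.17 and 0.567 FPKM in SunTag, against 1.28 and 0.753 FPKM in WT. The part of any of these differences in the mitochondrial results was not tested. In bulk tissue, fewer cells of a type and less RNA per cell cannot be told apart.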

How the data were processed

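Liver total RNA had been isolated with a Direct-zol kit and sequenced from standard Illumina libraries, per the labels' protocols. The submitters' processing notes name cutadapt 1.11, TopHat2 2.1.1, Cufflinks 2.2.1 and the build mm9; the annotation, settings, read length and use of strand are not given in the sources used here. Each deposited table holds, per its header, 37468 rows with an FPKM value, its bounds and a status, and the deposited FPKM values were used without further normalization.

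Left out were 343 rows without the status OK in some library, and symbols with several rows (244) were summed. limma 3.58.1 (R 4.3.3) was run on log2(FPKM + 1) for 15744 genes, those with 1 FPKM or more in some library. Each of the 4 groups had its own mean and all 7 libraries shared the spread (3 residual and 1.93 prior degrees of freedom), so the lone Myod1_active library was assumed to vary like the others. P-values were two-sided and adjusted across genes by Benjamini-Hochberg, with a threshold of 0.05. The pseudocount shrinks the differences of low genes. The code was tested on simulated data.

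Implied fragments were the squared ratio of the midpoint of the bounds to their SD, each bound being taken as 2 SD. Values with a lower bound of 0 have none. True depth is unknown. No pair of tables had more than 1 identical nonzero value, so none was treated as a copy.

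The genes and lists were chosen with earlier results of these data known. The text names all mRNAs and rRNAs, the most abundant tRNAs, tRNAs called or listed at 0, and set members of the nuclear lists. Genes with a profile like that of mt-Ts1 are not given, since the libraries cluster by experiment. mt-Ti, mt-Tq, mt-Tl2 and the ratios between genes within a library were chosen after their values were seen. Alternatives were another pseudocount, no filter, median-ratio scaling, leaving out nuclear genes under 300 bp, fitting only the 2 groups compared, a replicate block and each library left out; implied fragments were added after seeing the data.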

Additional observations from a re-analysis of the deposited data

How the results depend on the processing

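Between SunTag and WT, 0 mitochondrial genes passed under every alternative run. The log2 ratio of their share of the FPKM sum was 0.07 as reported, 0.18 with mt-Ts1 left out and 0.28 on implied fragments; for the mRNAs it was 0.17 as reported, 0.23 relative to rows off the mitochondrial chromosome and 0.28 on implied fragments. With a library left out, the median difference of the mRNAs lay between 0.12 and 0.40 (reported 0.29) and that of the tRNAs between 0.046 and 0.40 (reported 0.25). Differences then ranged across 0 for mt-Co3 (-0.074 to 0.66), mt-Ty (-0.15 to 1.19), mt-Ts1 (-0.16 to 0.48), mt-Td (-0.61 to 5.91) and mt-Tp (-0.19 to 0.54), none of which had passed the test.

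Between Myod1_active and Myod1_control, leaving out a library gave 0 to 1 mitochondrial genes called; the 1 was mt-Tf, without Myod1_control replicate 2. Under median-ratio scaling the median difference was -0.546 for the mRNAs (reported -0.23) and -0.76 for the tRNAs (reported -0.44), and mt-Rnr1 turned to -0.29. With a library left out, these medians lay between -0.45 and -0.025 and between -0.63 and -0.21, and the log2 ratio of the shares ranged between -0.50 and 0.031 for the 37 genes and between -0.44 and 0.11 for the mRNAs, positive without Myod1_control replicate 2. Differences then ranged across 0 for mt-Rnr1 (-0.23 to 0.29), mt-Nd1 (-0.41 to 0.21), mt-Co1 (-0.38 to 0.030), mt-Co2 (-0.34 to 0.10), mt-Atp6 (-0.45 to 3.4e-04), mt-Co3 (-0.48 to 0.044), mt-Ts1 (-0.36 to 0.069), mt-Td (-0.68 to 0.60) and mt-Ts2 (-0.031 to 0.69).

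Between Myod1_control and SunTag, 12 mitochondrial genes passed as reported, 3 with no filter, 1 with only the 2 groups in the fit, and 0 to 13 with a library left out. The median difference of the mRNAs, 0.75, then lay between 0.48 and 0.99. The log2 ratio of the share of the 37 genes, -0.50 as reported, was -0.80 relative to rows off the mitochondrial chromosome, turned to 0.30 with mt-Ts1 left out and to 0.85 on implied fragments, and lay between -0.79 and -0.26 with a library left out. For the mRNAs it was 1.14 as reported, 0.72 with mt-Ts1 left out, 0.84 relative to rows off the mitochondrial chromosome and 0.84 to 1.39 with a library left out. Differences ranged across 0 for mt-Ty (-0.26 to 1.08), mt-Co3 (-0.042 to 0.69) and mt-Co2 (-0.097 to 0.34). The cause of these changes was not tested.

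Over all genes tested, counts called higher and lower between Myod1_control and SunTag were 1149 and 2683 as reported, 1820 and 1750 under median-ratio scaling, 102 and 153 with only the 2 groups, and 23 and 35 without WT replicate 2. Median-ratio scaling thus changed the split of calls. With the replicate number as a block, 6 mitochondrial genes passed in that comparison, all among the 12 reported, and 0 in the others. The deviations of same-numbered SunTag and WT libraries correlated at 0.0425 over 15744 genes and at 0.487 over the 37 mitochondrial genes; no label ties the numbers to an animal or batch and there are only 2 pairs, so the libraries were taken to share only a number.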
